A study of Mus musculus with 9 samples.

Results

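The microglia and innate immune genes examined here are 32 genes listed by symbol for their known roles in microglia, the resident macrophages of the brain, and in innate immunity. Their probes were found through the RefSeq accession that the array gives for each probe. Of the 32 genes, 30 matched a probe, out of 16358 genes named on the array, and the expression of Csf1r and Cd68 is not analysed here. A total of 25 members were well above background on at least 3 of the 9 arrays and entered the fit, among 12622 genes in all, and 23 of them were well above background on all 9 arrays.

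RNA levels were compared between amygdala, hypothalamus and prefrontal cortex in male C57BL/6J wild-type (WT) mice aged 8 to 9 weeks. The mice were on restricted food (CR), on alternating fasting and refeeding (RFR), or had free access to food (AD), and the CR mice received a fixed part of the amount that the RFR mice ate. All mice were perfused with cold buffered saline before the brain was cut into coronal slices, and tissue was taken on day 8. For each region and diet there is 1 single-colour Agilent array of RNA pooled in equal amounts from 4 mice, of which 400 ng was labelled, so the spread between mice is not seen. Whether the RFR mice were in a fasting or a feeding period when killed is not stated in the sources used here.

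Microglia settle in the brain before birth and renew themselves there. In the healthy brain they scan the tissue with moving processes, read purines, lipids, chemokines and complement through surface receptors, and take up debris and synapses. Their identity depends on the growth factor receptor Csf1r and on the transcription factors PU.1 and Irf8. Macrophages at the borders of the brain, blood neutrophils and lymphocytes share many of the same genes, among them Ptprc, Itgam, Tyrobp and Cd74, so few of the members belong to microglia alone.

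All values are log2 processed signals relative to the 75th percentile of their own array, so 1 unit is a change of 2-fold, and values of different genes were not set against each other. Of 43379 noncontrol spots, 59.8% to 69.6% gave a signal well above background. Of the microglia markers Aif1, Cx3cr1, P2ry12, Tmem119, C1qa and Tyrobp, each was well above background on all 9 arrays. The arrays came from 3 slides, each scanned as 1 set. Slide 1 held the 3 AD arrays and RFR prefrontal cortex, slide 2 held RFR amygdala, RFR hypothalamus, CR hypothalamus and CR prefrontal cortex, and slide 3 held CR amygdala alone. In pooled tissue RNA, fewer microglia and less RNA per microglial cell cannot be told apart.

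The stretch before the start of a gene is among the places where PU.1, a factor of the ETS family that opens macrophage genes, is known to bind. Sites farther from the start were not searched. The RefSeq promoter table (build GRCm38.p6) holds 22 of the 32 members, in 25 windows, because some genes have more than 1 start. The 250 bases before each start were searched on both strands. The sequences of C1qc, P2ry12, P2ry13 and Trem2 are shown for members that passed as lower in hypothalamus than in prefrontal cortex. That of Tlr2 is shown for the member that changed the opposite way. Each of these windows holds a match, which is not so for all members that were lower. Capitals mark matches to the ETS core AGGAAG or, in C1qc, to the longer PU.1 motif GAGGAAGT, on either strand. The windows are those of C1qc (chr4:136892915-136893164, minus strand), P2ry12 (chr3:59262986-59263235, minus strand), P2ry13 (chr3:59210883-59211132, minus strand), Trem2 (chr17:48346151-48346400, plus strand) and Tlr2 (chr3:83841609-83841858, minus strand), each written 5′ to 3′ on the strand of its gene.
C1qc: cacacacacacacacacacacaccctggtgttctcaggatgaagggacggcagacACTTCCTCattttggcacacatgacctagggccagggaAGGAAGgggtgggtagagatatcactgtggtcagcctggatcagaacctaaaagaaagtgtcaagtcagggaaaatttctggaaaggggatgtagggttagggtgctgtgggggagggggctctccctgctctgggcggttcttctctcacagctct
P2ry12: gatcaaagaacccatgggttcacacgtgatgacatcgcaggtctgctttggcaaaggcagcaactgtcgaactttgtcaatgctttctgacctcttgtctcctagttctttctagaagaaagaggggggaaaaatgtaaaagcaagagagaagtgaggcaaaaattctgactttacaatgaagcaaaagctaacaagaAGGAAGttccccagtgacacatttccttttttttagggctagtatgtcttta
P2ry13: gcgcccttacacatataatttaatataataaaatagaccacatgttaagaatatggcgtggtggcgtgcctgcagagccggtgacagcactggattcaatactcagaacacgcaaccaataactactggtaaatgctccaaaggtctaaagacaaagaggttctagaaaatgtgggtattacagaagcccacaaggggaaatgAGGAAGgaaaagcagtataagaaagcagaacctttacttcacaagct
Trem2: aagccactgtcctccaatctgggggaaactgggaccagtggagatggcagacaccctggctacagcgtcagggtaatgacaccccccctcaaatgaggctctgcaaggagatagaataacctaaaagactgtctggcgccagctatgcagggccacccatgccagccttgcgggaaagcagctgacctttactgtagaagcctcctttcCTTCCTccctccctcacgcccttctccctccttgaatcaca
Tlr2: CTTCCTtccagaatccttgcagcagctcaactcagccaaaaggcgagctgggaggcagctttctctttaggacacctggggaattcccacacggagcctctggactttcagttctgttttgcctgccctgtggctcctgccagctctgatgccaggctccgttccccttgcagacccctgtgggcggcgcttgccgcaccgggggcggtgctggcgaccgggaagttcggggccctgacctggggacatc

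The ETS core was in 15 of the 25 member windows (60.0%), those of 13 members, and in 29.5% of all 32851 windows of this length. The PU.1 motif, which contains the ETS core, was in 1 member window, that of C1qc (4.0%), and in 2.44% of all windows. In C1qc the PU.1 match lies 195 to 188 bases before the start, while the last base of the ETS core lies 47 bases before the start in P2ry12, 42 in P2ry13 and 36 in Trem2. In Tlr2 it lies at the far end of the window, 245 bases before the start. A PU.1-IRF composite motif was in 0 of the 25 member windows and in 2.3% of all windows, and TATAAA was in 6 member windows (24.0%, against 12.4% of all windows). The windows of Aif1, Cx3cr1, Cd53 and Irf8, which also passed as lower in hypothalamus than in prefrontal cortex, held no match to the ETS core. A match is a run of letters and was not tested for binding, and its relation to the levels was not tested.

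The first comparison asked how the members differ between regions, with the 3 diets standing as the 3 arrays of a region. In hypothalamus, 15 of the 25 fitted members were lower than in prefrontal cortex, by 1.3-fold (Cd14) to 1.89-fold (Gpr34), 1 was higher (Tlr2, 2.68-fold) and 9 did not pass (limma, adjusted p under 0.05). Over all genes, 21.3% passed as lower, 26.7% as higher and 48.0% in either direction. The median difference of the members was -0.49 log2 units, beside 0.06 over all 12622 genes, and 24 of 25 members lay below 0. In amygdala, 11 members were higher than in hypothalamus, by 1.31-fold (Fcgr3) to 3.83-fold (Ptprc) (13.5% of all genes were higher), Tlr2 was lower (15.9% were; 29.4% in either direction) and 13 did not pass, with a median of 0.43 beside -0.06 over all genes. Amygdala and prefrontal cortex differed for 1 member, Ptprc (22.3% of all genes passed in either direction, 12.1% as higher and 10.2% as lower), and the median of the members was -0.10 beside 0.0035 over all genes.

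Each of the 15 members that passed as lower in hypothalamus than in prefrontal cortex was lower under all 3 diets, including CR and AD, where both arrays lie on the same slide. The call was made on these same arrays, so the agreement in sign is no separate support for it. Of the 25 fitted members 14 were lower with no overlap between the arrays of the 2 regions, as were 26.1% of all genes. With slide as a block, 10 of the 15 still passed, among 12 members past the threshold in either direction (43.6% of all genes). Leaving out the RFR pool left 4 members past the threshold (3 lower, 1 higher), beside 27.7% of all genes, and leaving out the AD pool left 15 (41.4% of all genes) and the CR pool 13 (37.6%). Each of the 11 members higher in amygdala than in hypothalamus was higher under all 3 diets, again on the arrays that gave the call. Of the 25 fitted members 14 were higher with no overlap (16.8% of all genes were). With slide as a block 7 of the 11 passed, among 9 members in either direction (21.9% of all genes), and Tmem119, Laptm5, Fcgr3 and Cd74 did not (adjusted p 0.06 to 0.10). Here 12 members passed without the AD pool (23.4% of all genes), 6 without the CR pool (17.7% of all genes) and 2 without the RFR pool (11.3% of all genes). Fits without a pool, and the fit with slide as a block, have 2 residual degrees of freedom in place of 4. CR amygdala is alone on its slide, so the fit with slide as a block in effect leaves this array out. The comparisons with hypothalamus share its 3 arrays.

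**Figure D1:**
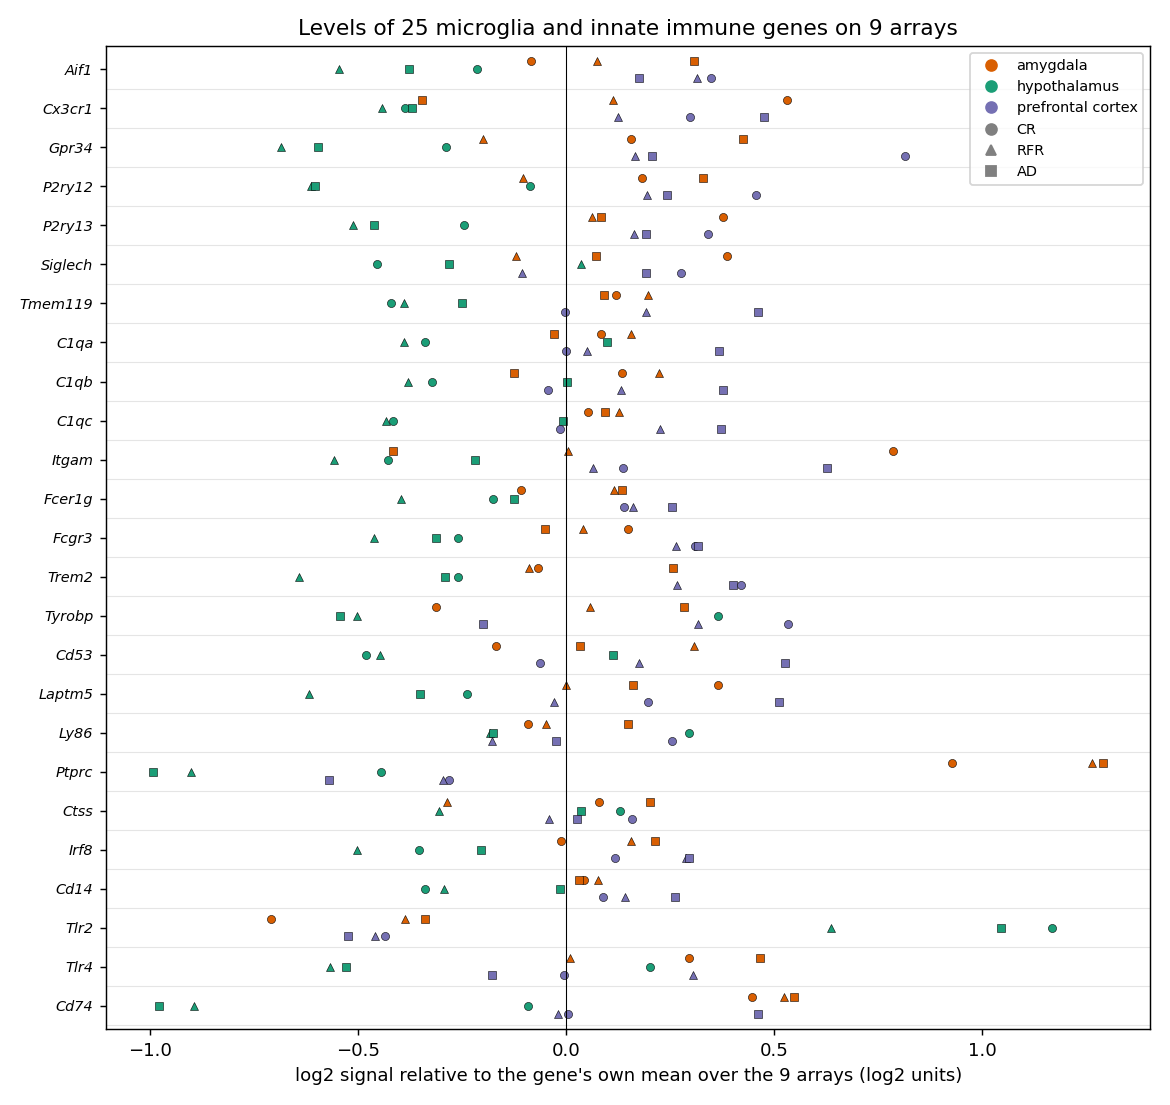
Log2 signal of the 25 fitted members on the 9 arrays (x axis, log2 units) relative to each gene's own mean; colour gives the region and shape the diet. The mean of the 3 hypothalamus arrays is the lowest of the 3 regions for all members but Tlr2, where it is the highest. For many members single hypothalamus arrays overlap another region. The 3 amygdala arrays of Ptprc lie above all others.

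Most surface receptors and markers of resting microglia were lower in hypothalamus. Of the 7 fitted, 6 were lower than in prefrontal cortex (21.3% of all genes were) and 5 were lower than in amygdala (13.5% of all genes were). Gpr34, a receptor for lysophosphatidylserine, had log2 signals of -1.48, -1.84 and -1.22 in amygdala (CR, RFR and AD throughout), -1.93, -2.32 and -2.23 in hypothalamus, and -0.83, -1.47 and -1.43 in prefrontal cortex. All 3 hypothalamus arrays lay below the arrays of both other regions, and the CR prefrontal cortex array was the highest. The difference of hypothalamus from prefrontal cortex was -0.92 ± 0.17 log2 units (SE, n = 3 arrays each, adjusted p = 0.0039), and that of amygdala from hypothalamus 0.65 ± 0.17 (adjusted p = 0.027).

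P2ry12, the ADP receptor that steers microglial processes towards injury, and its relative P2ry13 lie near each other on chromosome 3 (P2ry13 at 59207892 to 59210882, P2ry12 at 59216271 to 59262985). P2ry12 had -0.62, -0.90 and -0.47 in amygdala, -0.89, -1.42 and -1.40 in hypothalamus, and -0.35, -0.61 and -0.56 in prefrontal cortex. The CR hypothalamus array reached the RFR amygdala array, and no hypothalamus array reached prefrontal cortex. P2ry12 was lower in hypothalamus than in prefrontal cortex by 1.66-fold (adjusted p = 0.0046). P2ry13 had -1.22, -1.53 and -1.51 in amygdala, -1.84, -2.10 and -2.06 in hypothalamus, and -1.25, -1.43 and -1.40 in prefrontal cortex. The 3 hypothalamus arrays of P2ry13 lay apart from the other 6, at -0.64 ± 0.09 against prefrontal cortex (adjusted p = 0.0011), and this difference passed in every alternative run.

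Tmem119, a membrane protein used to tell microglia from other macrophages, had 0.93, 1.01 and 0.90 in amygdala, 0.39, 0.42 and 0.56 in hypothalamus, and 0.81, 1.01 and 1.27 in prefrontal cortex. No hypothalamus array reached another region, and Tmem119 was 1.48-fold lower in hypothalamus than in prefrontal cortex (adjusted p = 0.0068). Aif1, which encodes the cytosolic calcium-binding protein Iba1, had 1.12, 1.27 and 1.51 in amygdala, 0.99, 0.65 and 0.82 in hypothalamus, and 1.55, 1.51 and 1.38 in prefrontal cortex. It was lower in hypothalamus than in prefrontal cortex (-0.66 ± 0.14, adjusted p = 0.0082), with a smaller gap to amygdala (0.48 ± 0.14 for amygdala over hypothalamus, adjusted p = 0.045). Cx3cr1, the receptor of the neuronal chemokine fractalkine, had 0.57, 0.15 and -0.31 in amygdala, -0.35, -0.40 and -0.33 in hypothalamus, and 0.34, 0.16 and 0.52 in prefrontal cortex. The hypothalamus arrays were alike, whereas the amygdala arrays spanned most of the range, and Cx3cr1 passed against prefrontal cortex (-0.70 ± 0.20, adjusted p = 0.027) but not between amygdala and hypothalamus (adjusted p = 0.11). With the mean of its 2 probes the difference from prefrontal cortex was -0.43 and did not pass (adjusted p = 0.097), and the second probe, well above background on 7 arrays, gave -0.16. Siglech, a sialic acid-binding lectin, ran between -3.02 and -2.18 over the 9 arrays with overlapping regions and did not pass.

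Complement C1q is assembled from the products of C1qa, C1qb and C1qc, which lie side by side on chromosome 4 (136880126 to 136898844), and Itgam encodes a chain of a complement receptor. C1qc had 2.50, 2.58 and 2.55 in amygdala, 2.04, 2.02 and 2.44 in hypothalamus, and 2.44, 2.68 and 2.82 in prefrontal cortex. The AD hypothalamus array read as high as the CR prefrontal cortex array, and the mean difference of hypothalamus from prefrontal cortex was -0.48 ± 0.12 (adjusted p = 0.015; 0.064 with slide as a block). C1qa had 1.60, 1.67 and 1.49 in amygdala, 1.18, 1.13 and 1.61 in hypothalamus, and 1.51, 1.56 and 1.88 in prefrontal cortex. C1qb had 0.71, 0.80 and 0.45 in amygdala, 0.25, 0.19 and 0.57 in hypothalamus, and 0.53, 0.71 and 0.95 in prefrontal cortex. Neither passed (-0.35 ± 0.15 and -0.39 ± 0.16 for hypothalamus minus prefrontal cortex), and in both the AD array was the highest of the 3 in hypothalamus and prefrontal cortex. Itgam had -3.06, -3.84 and -4.26 in amygdala, -4.28, -4.41 and -4.07 in hypothalamus (2 of 3 arrays well above background), and -3.71, -3.79 and -3.22 in prefrontal cortex. It did not pass (adjusted p = 0.10 for hypothalamus minus prefrontal cortex; 0.047 with slide as a block).

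Trem2, a lipid-sensing receptor that signals through the adaptor Tyrobp, had 2.16, 2.14 and 2.48 in amygdala, 1.97, 1.58 and 1.94 in hypothalamus, and 2.65, 2.49 and 2.63 in prefrontal cortex. The regions did not overlap, and hypothalamus was lower than prefrontal cortex by 1.69-fold (-0.76 ± 0.11, adjusted p = 0.0016), a difference that passed in every alternative run. Fcgr3, a low-affinity receptor for IgG, had 0.23, 0.12 and 0.03 in amygdala, -0.18, -0.38 and -0.24 in hypothalamus, and 0.39, 0.34 and 0.39 in prefrontal cortex. Its arrays also fell into 3 separate ranges, with hypothalamus at -0.64 ± 0.10 against prefrontal cortex (adjusted p = 0.0016 and again past the threshold in every alternative). Fcer1g, the signalling chain shared by Fc receptors, had 0.12, 0.35 and 0.37 in amygdala, 0.06, -0.16 and 0.11 in hypothalamus, and 0.37, 0.39 and 0.49 in prefrontal cortex. It was lower in hypothalamus than in prefrontal cortex (-0.42 ± 0.11, adjusted p = 0.018; 0.054 with slide as a block). Tyrobp itself had 0.75, 1.12 and 1.35 in amygdala, 1.43, 0.56 and 0.52 in hypothalamus, and 1.59, 1.38 and 0.86 in prefrontal cortex. The 3 regions overlapped, and Tyrobp passed in no region comparison of the reported fit. With slide as a block amygdala was higher than hypothalamus (0.68 in place of 0.24, adjusted p = 0.024). That fit in effect leaves out CR amygdala, the lowest of the 3 amygdala arrays.

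Among the members grouped as membrane proteins of leukocytes (Ptprc, Laptm5, Cd53 and Ly86), Ptprc departed from the other members. Ptprc encodes the phosphatase CD45, which microglia carry at lower levels than blood leukocytes. Its log2 signals were -0.88, -0.54 and -0.52 in amygdala, -2.25, -2.71 and -2.80 in hypothalamus, and -2.09, -2.10 and -2.38 in prefrontal cortex. The amygdala arrays lay more than 1 log2 unit above every other array. Ptprc was 3.83-fold higher in amygdala than in hypothalamus (1.94 ± 0.18, adjusted p = 0.00046) and 2.91-fold higher than in prefrontal cortex (1.54 ± 0.18, adjusted p = 0.0014), and both differences passed in every alternative run. Of the 2 other probes of Ptprc, 1 was not well above background on any array, and the other was well above background on 2 arrays and read -4.53, -4.73 and -5.42 in amygdala, -7.33, -6.96 and -7.12 in hypothalamus, and -7.20, -6.35 and -7.31 in prefrontal cortex. That probe too was highest on the 3 amygdala arrays.

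Summed signals of markers of blood leukocytes overlapped between amygdala and hypothalamus, and those of border macrophages did not. The summed linear signal of 9 matched lymphocyte markers was 0.194 to 0.276 in amygdala, 0.203 to 0.25 in hypothalamus and 0.197 to 0.213 in prefrontal cortex, in units of the 75th percentile of the array, and Cd3d and Cd3g were not well above background on any array. That of 12 neutrophil and marrow genes was 0.314 to 0.508 in amygdala, 0.388 to 0.53 in hypothalamus and 0.914 to 2.47 in prefrontal cortex, and Elane, Lcn2, Mmp8 and Retnlg were not well above background on any array. That of 10 border macrophage genes was 2.78 to 3.07 in amygdala, 1.33 to 1.88 in hypothalamus and 2.05 to 2.81 in prefrontal cortex, and Ccr2 was not well above background on any array. Among the single genes, 1 of 4 fitted lymphocyte genes (Cd79b) and 1 of 5 fitted neutrophil genes (Ltf) passed as higher in amygdala than in hypothalamus. Both were named after their values were seen, and 13.5% of all genes passed in that direction. The part of these cells in the Ptprc values was not tested.

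Laptm5, a lysosomal membrane protein of blood cells and microglia, had -1.46, -1.83 and -1.67 in amygdala, -2.06, -2.44 and -2.18 in hypothalamus, and -1.63, -1.86 and -1.32 in prefrontal cortex. Hypothalamus lay below both other regions, by 1.55-fold against prefrontal cortex (adjusted p = 0.0053). Cd53, a tetraspanin of leukocytes, had -2.47, -2.00 and -2.27 in amygdala, -2.78, -2.75 and -2.19 in hypothalamus, and -2.36, -2.13 and -1.78 in prefrontal cortex. Its AD hypothalamus array overlapped prefrontal cortex, and the difference (-0.48 ± 0.16, adjusted p = 0.043) did not pass with slide as a block (adjusted p = 0.12). Ly86, a partner of a Toll-like receptor relative on the cell surface, ran between 1.22 and 1.70 and Ctss, the lysosomal protease cathepsin S, between 3.67 and 4.18, each with overlapping regions. Neither passed, and the differences of hypothalamus from prefrontal cortex were -0.04 ± 0.15 for Ly86 and -0.10 ± 0.11 for Ctss.

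Irf8, a transcription factor of the macrophage lineage, had -0.98, -0.81 and -0.75 in amygdala, -1.32, -1.47 and -1.17 in hypothalamus, and -0.85, -0.68 and -0.67 in prefrontal cortex. It was lower in hypothalamus than in both other regions with no overlap (-0.59 ± 0.11 against prefrontal cortex, adjusted p = 0.0036). A second probe gave -0.65 for the same difference, while the difference of amygdala from hypothalamus, 0.47 by either probe, did not pass with the mean of both (adjusted p = 0.016 by the probe used, 0.067 with the mean). Spi1, which encodes PU.1, was well above background on 1 array alone, RFR prefrontal cortex (-5.44), read -7.71 to -6.46 on the other 8, and was not fitted.

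Sensors of microbial products went in different directions. Tlr2, the receptor for bacterial lipoproteins, had -3.10, -2.78 and -2.73 in amygdala, -1.23, -1.76 and -1.35 in hypothalamus, and -2.83, -2.85 and -2.92 in prefrontal cortex. The 3 hypothalamus arrays lay about 1 log2 unit or more above the other 6. Tlr2 was higher in hypothalamus than in prefrontal cortex by 2.68-fold (1.42 ± 0.17, adjusted p = 0.0005), and amygdala was lower than hypothalamus by 2.69-fold (-1.43 ± 0.17, adjusted p = 0.0012). Both differences passed in every alternative run. Cd14, which hands lipopolysaccharide to Toll-like receptors, had -1.55, -1.52 and -1.56 in amygdala, -1.93, -1.89 and -1.61 in hypothalamus, and -1.51, -1.45 and -1.33 in prefrontal cortex, a difference of -0.38 ± 0.10 between hypothalamus and prefrontal cortex (adjusted p = 0.022; 0.06 with slide as a block). Tlr4, the lipopolysaccharide receptor, was well above background on 6 of 9 arrays, ran between -5.47 and -4.44, and did not pass.

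Cd74, the invariant chain of MHC class II, had -1.61, -1.54 and -1.51 in amygdala, -2.15, -2.95 and -3.04 in hypothalamus, and -2.06, -2.08 and -1.60 in prefrontal cortex. Amygdala was higher than hypothalamus by 2.24-fold (1.16 ± 0.24, adjusted p = 0.012; 0.06 with slide as a block), and hypothalamus lower than prefrontal cortex (-0.80 ± 0.24, adjusted p = 0.031; 0.12 with slide as a block). The gap between hypothalamus and prefrontal cortex was -0.09 under CR, -0.87 under RFR and -1.44 under AD. The part of border macrophages, whose summed signal was also highest in amygdala and lowest in hypothalamus under each diet, was not tested.

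The inflammatory cytokines and chemokines were near or below the limit of detection. Tnf was not well above background on any array, Ccl3 was so on 1 array, and Ccl4 and Il1b were so on 2 arrays each, so the 4 genes were not fitted. Il1b, which encodes the precursor of interleukin 1 beta, read -7.72 to -6.86 on the 6 arrays of amygdala and hypothalamus, none of them well above background, and -4.97, -5.21 and -5.34 in prefrontal cortex, 2 of these 3 arrays well above background. Ccl3 read -6.75 to -5.43, Ccl4 -6.78 to -5.09 and Tnf -8.06 to -6.77 over the 9 arrays.

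**Figure D2:**
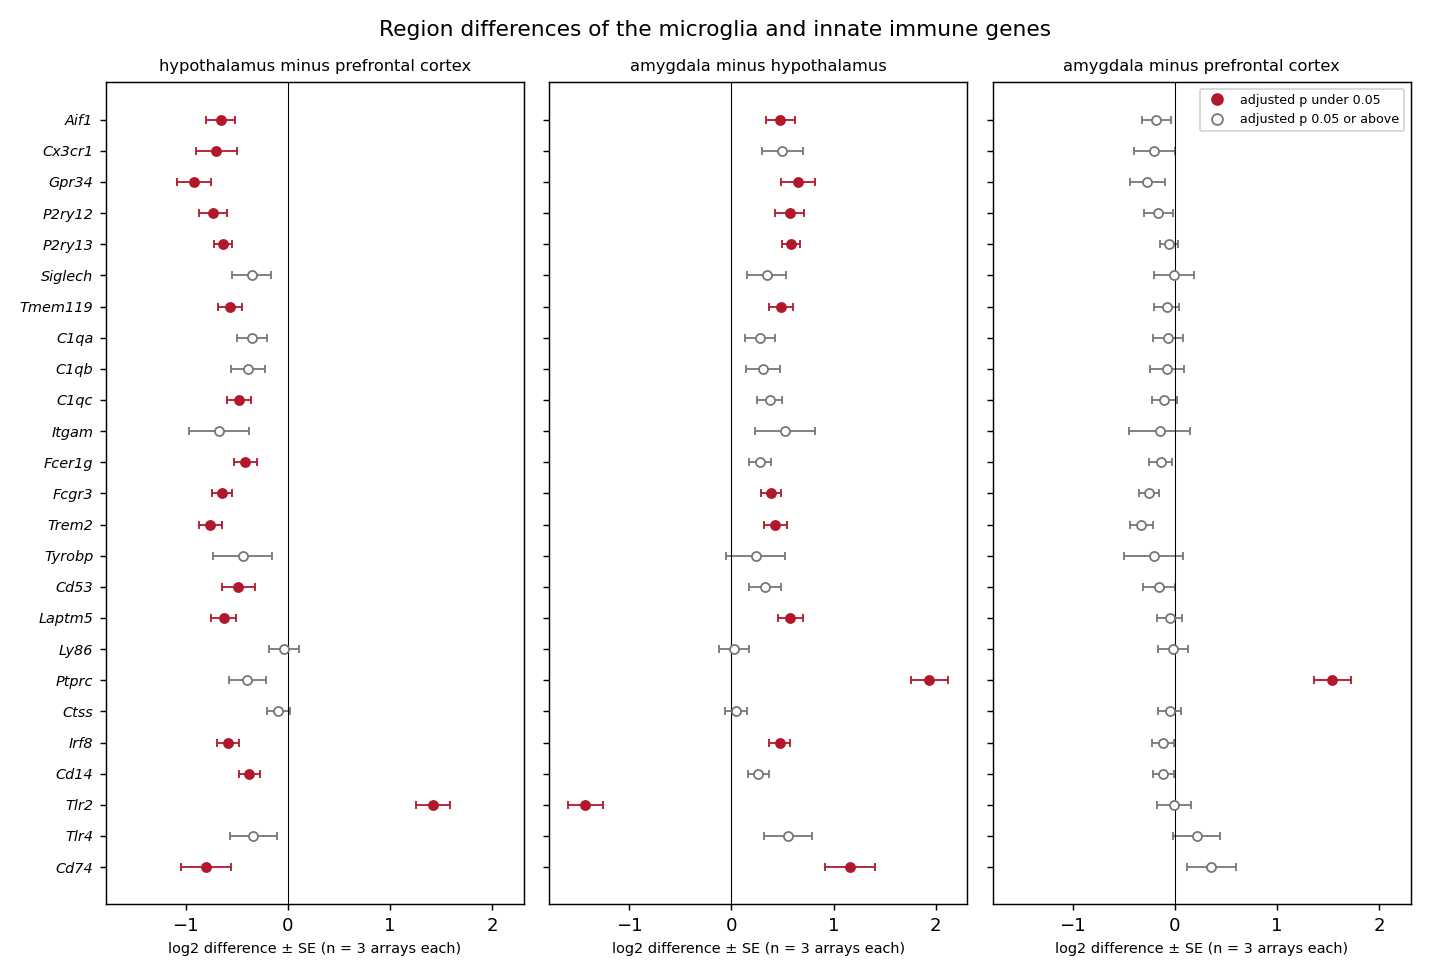
Difference between regions of each fitted member (x axis, log2 units ± SE, 3 arrays a region); filled points passed the threshold. In hypothalamus minus prefrontal cortex all but Tlr2 lie below 0, in amygdala minus hypothalamus all but Tlr2 lie above 0, and in amygdala minus prefrontal cortex Ptprc alone passed.

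The second comparison asked whether food restriction or repeated fasting and refeeding moved the same genes. Over the 3 regions, no member passed for CR against AD, RFR against AD or CR against RFR (limma, 0 of 25 in each), where 0.0%, 0.0158% and 0.0158% of all genes passed. At an unadjusted p under 0.05 there were 2, 3 and 5 members, beside 16.5%, 6.16% and 14.8% of all genes. The labels give 4 mice of each diet and name none, so the 3 regions of a diet may share their mice, in which case the p-values of the diet comparisons are too small. The comparisons of CR and RFR with AD share the AD arrays. All 3 AD arrays lie on slide 1 and no CR array does, so CR and AD lie on different slides in each region. RFR and AD share a slide in prefrontal cortex alone, and CR and RFR in hypothalamus alone. The reported fit does not include slide.

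In RFR against AD, the median of the members was -0.12 beside -0.03 over all genes. Trem2 (-0.28 ± 0.11, unadjusted p = 0.046, adjusted p = 0.79), Ctss (-0.30 ± 0.11, unadjusted p = 0.032, adjusted p = 0.74) and Laptm5 (-0.32 ± 0.12, unadjusted p = 0.035, adjusted p = 0.75) were the 3 members under the unadjusted threshold. A second probe of Trem2, lower in signal, gave -0.16, -0.64 and -0.37 in amygdala, hypothalamus and prefrontal cortex, against -0.35, -0.35 and -0.13 by the probe used. For CR against AD the probes disagreed in hypothalamus (-0.64 by the second, 0.03 by the probe used). In CR against RFR, the median was 0.13 beside -0.01 over all genes. The 5 members under the unadjusted threshold were P2ry12 (0.36 ± 0.14), P2ry13 (0.25 ± 0.09), Ctss (0.33 ± 0.11), Laptm5 (0.32 ± 0.12) and Gpr34 (0.47 ± 0.17), with adjusted p between 0.25 and 0.3. In CR against AD, the median was 0.03 beside -0.04 over all genes, and P2ry13 (0.22 ± 0.09, adjusted p = 0.29) and Cd53 (-0.46 ± 0.16, adjusted p = 0.26) were under the unadjusted threshold. Without amygdala, Cd53 passed as lower in CR, beside 9.75% of all genes. The CR arrays left in that fit lie on slide 2 and the AD arrays on slide 1, so diet and slide cannot be told apart in it.

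**Figure D3:**
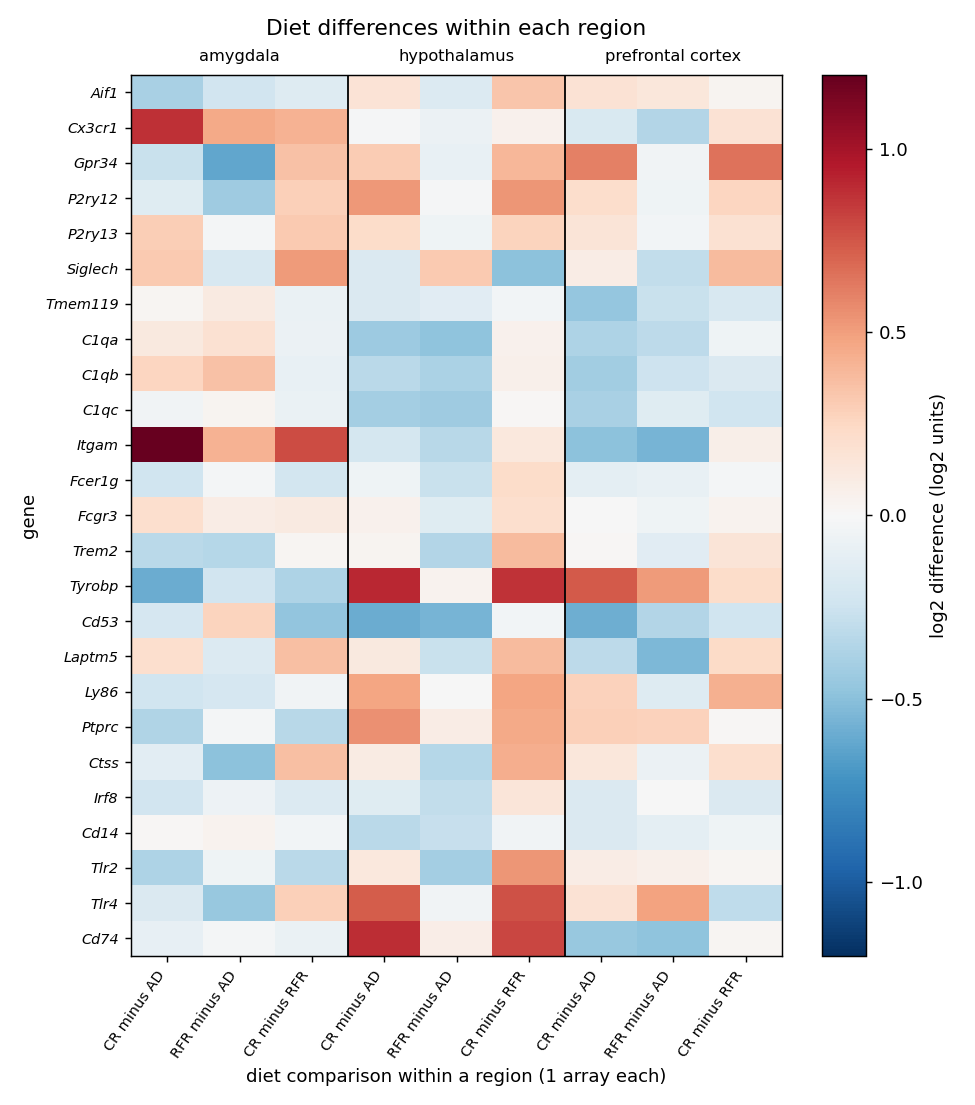
Diet differences of each fitted member within each region, 1 array against 1 array (colour, log2 units, red for higher and blue for lower in the first-named diet). The largest value is Itgam in amygdala, CR minus AD, at 1.20, and Tyrobp is red in hypothalamus and prefrontal cortex and blue in amygdala for CR minus AD.

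Within a region, 1 array stands for each diet and no test was possible. In amygdala, 10 members were higher and 15 lower in CR than in AD, with a median of -0.12 beside -0.11 over all genes, of which 39.0% were higher. By the probe used for each gene, Itgam was the only member to differ by at least 1 log2 unit, with -3.06 in CR amygdala against -4.26 in AD amygdala (1.20), where 3.23% of all genes differed that much and 2.23% were that much higher. RFR amygdala lay between (-3.84). A second probe of Irf8, well above background on all 9 arrays, gave 1.08 for the same comparison, against -0.23 by the probe used. In the other comparisons 0 members differed that much: of all genes it was 1.44% between RFR and AD amygdala and 2.14% between CR and RFR amygdala. In hypothalamus these shares were 1.31% between CR and AD, 0.682% between RFR and AD and 0.519% between CR and RFR, and in prefrontal cortex they were 1.13%, 0.954% and 0.803% in the same order. On the CR amygdala array the summed signal of the 12 neutrophil and marrow genes was 0.508, against 0.339 in RFR and 0.314 in AD amygdala, and 3 of the 5 fitted genes were higher in CR than in AD amygdala. CR amygdala is the only array of its slide and had the highest share of spots well above background (69.6%, against 59.8% to 65.0% on the other arrays). The part of slide, detection or neutrophils in these values was not tested. By the probe used, Cx3cr1 followed the order of Itgam (0.57 in CR, 0.15 in RFR and -0.31 in AD amygdala), while Tyrobp ran the other way (0.75, 1.12 and 1.35). The second probe of Cx3cr1, well above background on 7 arrays, read -4.45 in CR, -4.12 in RFR and -4.60 in AD amygdala, with RFR the highest.

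In hypothalamus, 14 members were higher and 11 lower in CR than in AD (median 0.05, all genes -0.03, of which 46.3% were higher), and 21 were higher and 4 lower in CR than in RFR, with both of those arrays on the same slide (median 0.27, all genes 0.04, of which 56.3% were higher). Tyrobp differed by 0.91 log2 units and Cd74 by 0.89 between CR and AD, and by 0.87 and 0.80 between CR and RFR. Border macrophage genes moved with them: their summed signal was 1.88 in CR, 1.33 in RFR and 1.35 in AD hypothalamus, 7 of the 9 fitted were higher in CR than in AD, and the median difference was 0.64. Among them F13a1 differed by 1.14 and Pf4 by 1.24. All 10 fibroblast genes of the meninges were higher in CR than in AD hypothalamus as well (median 0.60). The part of tissue from the brain's border in the Tyrobp and Cd74 values was not tested. In RFR against AD hypothalamus, 4 members were higher and 21 lower (median -0.17, all genes -0.06, of which 39.0% were higher). AD hypothalamus lies on another slide than CR and RFR hypothalamus, so diet and slide cannot be told apart in the comparisons with AD.

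In prefrontal cortex, 12 members were higher and 13 lower in CR than in AD (median -0.01, all genes -0.03, of which 46.3% were higher), and 5 were higher and 20 lower in RFR than in AD, on the same slide (median -0.12, all genes 0.01, of which 52.1% were higher). Tyrobp was again the member with the highest value in both comparisons (0.73 and 0.52), with Gpr34 at 0.61 in CR against AD. Cd74 had the opposite sign here (-0.46 in CR and -0.48 in RFR against AD). All 10 meningeal fibroblast genes and 8 of 9 border macrophage genes were lower in CR than in AD prefrontal cortex. CR and AD prefrontal cortex lie on different slides, so diet and slide cannot be told apart between them.

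C1qa, C1qb and C1qc had the same sign as each other in both diets in hypothalamus and prefrontal cortex. In hypothalamus C1qa, C1qb and C1qc were at -0.44, -0.32 and -0.41 in CR against AD and at -0.49, -0.38 and -0.42 in RFR against AD. In prefrontal cortex they were at -0.37, -0.42 and -0.39 in CR and at -0.32, -0.24 and -0.14 in RFR. In amygdala they were at 0.11, 0.26 and -0.04 in CR and at 0.18, 0.35 and 0.03 in RFR. Both diets share the AD array of their region. In hypothalamus CR and RFR lie on slide 2 and AD on slide 1. In prefrontal cortex CR lies on slide 2, while RFR and AD lie on slide 1. The 3 amygdala arrays lie on 3 different slides. Diet and slide therefore cannot be told apart in any of these values but those of RFR prefrontal cortex. Between CR and RFR hypothalamus, on the same slide, C1qa, C1qb and C1qc were at 0.05, 0.06 and 0.02. With 1 array for each, these values carry no error, and the difference between regions was not tested.

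Other microglia genes passed more often as lower than as higher in hypothalamus. Of 26 other fitted microglia genes, 2 were higher and 11 lower in hypothalamus than in prefrontal cortex (median -0.48), and 10 were higher and 2 lower in amygdala than in hypothalamus (median 0.32). Over all genes, 26.7% were higher and 21.3% lower in the first comparison, and 13.5% were higher and 15.9% lower in the second. Mertk, a receptor for the uptake of dying cells, averaged -0.06 ± 0.26 in amygdala, -1.21 ± 0.13 in hypothalamus and 0.24 ± 0.19 in prefrontal cortex (SD, n = 3 each). It was lower in hypothalamus than in prefrontal cortex by 2.73-fold (adjusted p = 6.3e-05). Mef2c, which cortical neurons also express, was lower by 29.5-fold. Rgs10, a regulator of G protein signalling, was higher in hypothalamus by 2.45-fold (adjusted p = 5.3e-05).

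Ligands that neurons and glia present to microglia split. Of 6, 2 were higher and 2 lower in hypothalamus than in prefrontal cortex (26.7% and 21.3% of all genes). Cx3cl1, the ligand of Cx3cr1, averaged 6.55 ± 0.16 in amygdala, 5.54 ± 0.23 in hypothalamus and 7.30 ± 0.26 in prefrontal cortex. It was lower in hypothalamus than in prefrontal cortex (-1.76 ± 0.11, adjusted p = 2.5e-05), as was Il34 (-1.32 ± 0.10, adjusted p = 6.2e-05), a ligand of Csf1r made by neurons. Csf1, the other ligand of Csf1r, was higher in hypothalamus (0.89 ± 0.11, adjusted p = 0.00061), and so was Cd200, a neuronal protein that restrains microglia (1.32 ± 0.13, adjusted p = 0.00024).

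Other lists of immune genes did not share 1 direction. In hypothalamus against prefrontal cortex, 26.7% of all genes were higher and 21.3% lower. Of 20 other Toll-like receptor pathway genes 4 were higher and 4 lower, near those shares, with Tnfaip3, a brake on NF-kappaB signalling, at -1.71 ± 0.16 and Nfkb1 at 0.66 ± 0.10. Of 14 other cytokines and receptors 0 were higher and 3 lower, and Casp1, the protease that matures interleukin 1 beta, was at -0.69 ± 0.12. Of 18 interferon and MHC genes 1 was higher and 5 lower, with H2-DMa at -0.98 ± 0.12 and H2-Ab1 at -0.80 ± 0.26. Of 15 genes known from activated microglia 3 were higher and 5 lower, from Lgals3 at 2.17 ± 0.12 to Tyro3, a receptor also found in neurons, at -2.76 ± 0.14. In amygdala against hypothalamus these 4 lists had 4 higher and 3 lower, 4 and 0, 5 and 1, and 5 and 3. Of all genes 13.5% were higher and 15.9% lower there. Spp1, the secreted protein osteopontin, was higher in amygdala than in hypothalamus by 4.54-fold (2.18 ± 0.26, adjusted p = 0.0012). In the 3 diet comparisons 0 genes passed in these lists, in the wider microglia list and in the ligand list.

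Markers of other cells also differed between the regions. Over all genes, 21.3% were lower and 26.7% higher in hypothalamus than in prefrontal cortex, and 13.5% were higher in amygdala than in hypothalamus. Of 9 fitted border macrophage genes, whose sums are given above beside Ptprc, 6 were lower in hypothalamus than in prefrontal cortex and 7 were higher in amygdala than in hypothalamus, among them F13a1 (1.24 ± 0.26 for amygdala minus hypothalamus) and Pf4 (1.35 ± 0.27). Of the fitted markers, 5 of 8 for brain endothelium, 6 of 10 for neurons and 5 of 10 for meningeal fibroblasts were lower in hypothalamus than in prefrontal cortex, and 1 each of the last 2 was higher. All 8 oligodendrocyte markers were higher there, and their summed signal was 101 to 146 in amygdala, 164 to 217 in hypothalamus and 56.7 to 104 in prefrontal cortex. All 3 red blood cell genes were lower in hypothalamus than in prefrontal cortex, with sums of 5.12 to 11.8 in amygdala, 2.55 to 9.81 in hypothalamus and 15.1 to 27.5 in prefrontal cortex. Of 8 astrocyte markers 3 were higher and 1 lower. Of 5 fitted neutrophil genes 3 were lower, as was 1 of 4 fitted lymphocyte genes. The part of these differences in the members' values was not tested.

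**Figure D4:**
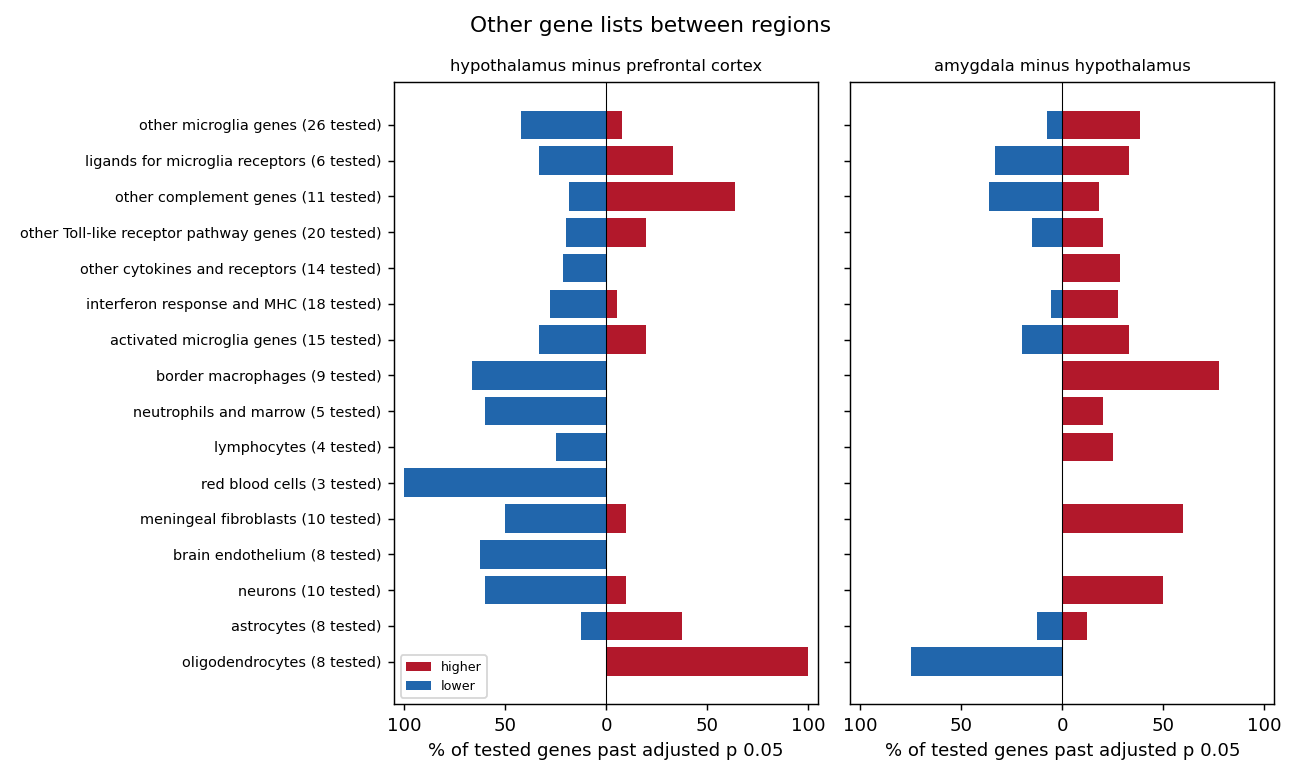
Share of the fitted genes of each list that passed as higher (red, right) or lower (blue, left) in hypothalamus minus prefrontal cortex and in amygdala minus hypothalamus (x axis, percent). In hypothalamus minus prefrontal cortex the bars run left for border macrophages and red blood cells and right for oligodendrocytes.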

How the data were processed

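Per the file headers, the authors deposited the output of Agilent Feature Extraction 9.5.1.1 for 9 single-colour (Cy3) arrays. The deposited processed signal is an intensity with the background of its own array subtracted and with no scaling across arrays. Median intensities of spot and local background, and quality flags of 0 or 1, were used too. A second deposited table holds a ratio per probe, found by setting it against the scanner signals: after 1 constant per array, 99.3% to 99.4% of its values were within 0.01 log2 units of the array's ratio to the AD array of its region. That ratio table served as an alternative.

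Each array's 75th percentile (43379 noncontrol spots) was subtracted from the log2 processed signal. Outlier spots were dropped and spots of a probe averaged. Of 41174 probes, 22951 were named through their RefSeq accession and a mouse gene table (GRCm38.p6) and 18223 were not. Where probes shared a gene, as for 7 members, the one of highest mean signal was taken. Genes well above background on at least 3 arrays, with a value on at least 6, were fitted with limma 3.58.1 (R 4.3.3) on region plus diet, with a Benjamini-Hochberg threshold of 0.05 for each contrast (4 residual degrees of freedom). Within a region, differences of at least 1 log2 unit between arrays both well above background were counted, with no test. The number of arrays limits the precision. Replicates in the usual sense are lacking: the 3 arrays of a region are 3 diet pools.

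Alternatives were normexp background (offset 50, on the median signals the files hold), quantile scaling, 2 other filters, the mean of all probes, trended and robust variances, slide as a fixed block, leaving out each diet pool or region, and the authors' ratio table. The fit was tested on simulated data. Values on all arrays are given for members past the threshold in a region comparison, for a difference of at least 1 log2 unit within a region and for members that stand for each role; from each other list up to 4 genes with the largest difference past the threshold were open to naming, and of these only genes well above background on all 9 arrays are named. Some genes open to naming are not reported here. Members and lists were chosen with earlier results of these data known. Other steps ran in Python 3.11.15 (pandas 2.3.3, numpy 2.4.6).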

Additional observations from a re-analysis of the deposited data

Results flagged for a closer look

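Tyrobp was the member whose diet difference ran in opposite directions between regions by at least 0.5 log2 units on both sides. In CR against AD it was at 0.91 in hypothalamus and at 0.73 in prefrontal cortex, against -0.60 in amygdala. Each value rests on 1 array against 1 array, the CR amygdala array lies alone on its slide, and the difference was not tested. Itgam (1.20 in amygdala, -0.49 in prefrontal cortex) and Cd74 (0.89 in hypothalamus, -0.46 in prefrontal cortex) also changed sign in CR against AD. Their negative values fell just short of 0.5 log2 units, and these differences were not tested either. In the group sizes here, with 1 array for each region and diet, no array could be examined for standing apart within its group.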

How the results depend on the processing

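Of 63 alternative counts of members past the threshold, 57 stayed within 1.5 times the reported count. In hypothalamus minus prefrontal cortex, where 16 passed, leaving out 1 diet pool gave 4 to 15. In amygdala minus hypothalamus, where 12 passed, it gave 2 to 12. In amygdala minus prefrontal cortex, where 1 passed, 2 passed with no filter on dim genes and 2 with the mean of all probes. In CR minus AD, where 0 passed, leaving out 1 region gave 0 to 1. In the fit without amygdala, which gave the 1, the CR arrays lie on slide 2 and the AD arrays on slide 1. Diet and slide cannot be told apart in that fit. In RFR minus AD and CR minus RFR 0 members passed in every alternative run, but counts over all genes moved. They were 13 with slide as a block for RFR minus AD (reported 2), 40, 24, 41 and 21 with normexp background, the stricter filter, trended and robust variances and the authors' ratio table for CR minus RFR (reported 2), and 5 with slide as a block and 1231 without amygdala for CR minus AD (reported 0). Of 54 alternative medians within a region, 50 moved by less than 0.1 log2 units. For CR minus AD the authors' ratio table gave 0.019 in amygdala (reported -0.12) and 0.19 in hypothalamus (reported 0.05), and in prefrontal cortex normexp background gave -0.20 and the mean of all probes -0.11 (reported -0.01); the cause was not tested, beyond the constants of the authors' table, which differ from the scaling used by 0.005 to 0.131 log2 units. The 29 member differences past the threshold gave 290 values under 10 alternatives: 233 still passed, 57 did not, and 0 changed sign. Of the 57, 22 came from leaving out the RFR pool, 10 the CR pool and 7 the AD pool, 9 from slide as a block, 6 from no filter, 2 from the mean of all probes and 1 from normexp background. The 7 differences said above to pass in every alternative passed throughout. No paired analysis by replicate number was possible because the labels carry none; the reported fit pairs the regions by diet pool. Low signals limit Spi1, Tnf, Ccl3, Ccl4 and Il1b.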

Other observations

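Complement genes outside the C1q locus did not follow the microglia genes. Of 11 fitted, 7 were higher and 2 lower in hypothalamus than in prefrontal cortex (median 1.38 log2 units), and 2 were higher and 4 lower in amygdala than in hypothalamus. Over all genes, 26.7% were higher and 21.3% lower in the first comparison, and 13.5% were higher and 15.9% lower in the second. C3, the central component that all complement pathways cleave, averaged -2.22 ± 0.10 in amygdala, 0.13 ± 0.26 in hypothalamus and -3.61 ± 0.22 in prefrontal cortex (SD, n = 3 arrays each). The 3 regions lay far apart, with C3 higher in hypothalamus than in prefrontal cortex by 13.3-fold (limma, 3.73 ± 0.16, adjusted p = 6.8e-06) and lower in amygdala than in hypothalamus by 5.10-fold (adjusted p = 0.00015). C4b, a component of the classical pathway that follows C1q, averaged 0.01 ± 0.30 in amygdala, 0.60 ± 0.18 in hypothalamus and -1.32 ± 0.25 in prefrontal cortex, and was higher in hypothalamus than in prefrontal cortex by 3.79-fold (adjusted p = 0.0003). Glia other than microglia are known to express both genes. In the 3 diet comparisons 0 of the 11 passed.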
